A study of Mus musculus with 4 samples.

Results

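The 10 genes described here are 3 ligands of the fibroblast growth factor (FGF) family (Fgf2, Fgf7 and Fgf10), 3 of its receptors (Fgfr1, Fgfr2 and Fgfr3), the feedback inhibitors Spry2 and Spry4, and the transcription factors Etv4 and Etv5. They were chosen by gene symbol, and all 10 were found among the 40092 genes of the count table. The table holds bulk RNA-seq of alveolar type 2 (AT2) cells, the surfactant-making progenitor cells of the alveolus, from 2 Ctrl and 2 A5-CKO libraries. Ctrl mice were Alkbh5flox/+ and A5-CKO mice were Alkbh5flox/flox, and both carried Sftpc-CreERT2 and the Rosa26-mTmG reporter. Alkbh5 encodes a demethylase that removes N6-methyladenosine (m6A) from RNA. Mice of both groups received tamoxifen and bleomycin, a drug that injures the lung, and green (GFP+) cells were sorted on day 14. The recombinase is driven from the Sftpc promoter, so deletion and green label were both limited to cells that had used it and their descendants, and Ctrl cells carried the same recombinase and 1 floxed allele. The paper names the controls littermates, but the labels do not give age or sex or state that each library came from a separate mouse. The p-values thus measure the spread between these samples, which may be technical.

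FGFs are secreted proteins that bind receptor tyrosine kinases together with heparan sulfate on the cell surface. The receptors pass the signal through FRS2 and the RAS to ERK kinase cascade, which turns on Etv4 and Etv5, and also the Sprouty genes, whose products restrain the cascade. In the lung, Fgf7 and Fgf10 are made mainly by mesenchymal cells and act on the epithelium through the IIIb form of Fgfr2, and Etv5 is known to maintain the AT2 cell state.

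Etv5, Fgfr2 and Spry2 were the most abundant of the 10 genes, and their promoters are shown as RefSeq and the GRCm38.p6 genome give them. The Fgfr2 and Spry2 windows run up to the base before the transcription start. The capitals mark AGGAAG, the motif of the PEA3 group of ETS factors to which Etv4 and Etv5 belong. The Fgfr2 window is chr7:130266809-130267058 (minus strand, GC content 44.0%), and the Spry2 window is chr14:105896820-105897069 (minus strand, 62.4%). The Etv5 window is chr16:22439720-22439820 (minus strand, 64.4%). It stops short of the start, as the 149 bases nearest the start, where other transcripts hold exons, were left out.
Fgfr2: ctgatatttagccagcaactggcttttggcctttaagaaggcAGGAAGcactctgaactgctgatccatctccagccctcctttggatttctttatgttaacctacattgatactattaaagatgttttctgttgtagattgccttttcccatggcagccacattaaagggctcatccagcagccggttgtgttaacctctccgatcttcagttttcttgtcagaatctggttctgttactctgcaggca
Spry2: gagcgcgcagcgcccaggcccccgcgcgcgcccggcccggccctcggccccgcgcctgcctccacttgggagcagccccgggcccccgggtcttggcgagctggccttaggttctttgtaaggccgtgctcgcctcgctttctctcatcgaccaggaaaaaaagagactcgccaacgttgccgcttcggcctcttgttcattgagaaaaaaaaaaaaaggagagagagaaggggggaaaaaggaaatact
Etv5: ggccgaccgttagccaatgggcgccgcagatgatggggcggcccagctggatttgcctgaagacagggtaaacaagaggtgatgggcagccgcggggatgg

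Promoter windows of 250 bases were found for 7 of the 10 genes, 9 windows in all. AGGAAG, searched on both strands, occurred in 1 of the 9, that of Fgfr2, and in 29.5% of 32851 promoter windows of the genome. CCGGAA, a general ETS motif that shares the core GGAA with the first, occurred in 0 of the 9 and in 12% of all windows. AGGAAG and CCGGAA cannot take the same core on 1 strand. These are matches of letters in a short window and say nothing about binding.

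The libraries held from 18144865 to 20811757 counts, and a count of 3, taken as the limit of detection, came to 0.128 to 0.177 CPM, the count scaled to a common library total with TMM factors. Alkbh5, the targeted gene, was at 81.7 and 152 CPM in Ctrl 1 and Ctrl 2 and at 19.3 and 36.6 CPM in A5-CKO 1 and A5-CKO 2. The A5-CKO values were the 2 lowest (log2 fold change -2.06, standard error (SE) 0.46, edgeR adjusted p = 0.528). Sftpc, the defining gene of the labelled cell type, was at 7856 to 16370.5 CPM in the 4 libraries. The 9 AT1 markers summed to 2145 to 2328 CPM, with Ager at 0.0905 to 0.349 CPM and Aqp5 at 479 to 981 CPM. Most of this sum came from Aqp5 and Emp2, the latter at 829 to 1022 CPM. Of the 7 AT1 markers tested, 6 had a fitted log2 fold change above 0 and 1, Aqp5, below 0 (median 0.63). The libraries also differed within a genotype. The summed level of 10 AT2 markers was 56399 and 80725 CPM in Ctrl 1 and Ctrl 2 and 41981 and 34636 CPM in A5-CKO 1 and A5-CKO 2, and all 10 had a fitted log2 fold change below 0 (median -0.85). The summed level of 13 fibroblast markers was 879.8, 714, 419 and 1612 CPM in the same order, with 8 above 0 and 5 below 0. In bulk samples, fewer cells of a type and less RNA per cell cannot be told apart.

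Of the 16661 genes that passed the filter on low counts, 0 (0.0%) passed an adjusted p of 0.05 between A5-CKO and Ctrl in edgeR. Before adjustment, 1530 genes (9.18%) were under 0.05, and DESeq2 with its default filtering called 59 of 16050 (0.368%) after adjustment. All 10 FGF genes passed the filter, and 0 passed the adjusted threshold with either tool. A single gene of the 10, Fgf7, was under 0.05 before adjustment and was higher in A5-CKO, beside 4.48% of all genes tested. Both A5-CKO libraries lay above both Ctrl libraries for Fgf2, beside 20.3% of all genes. They did so for Fgf7 and Fgf10 too, but 1 and 0 Ctrl libraries of these genes reached the level the filter asks of 2 libraries, so they were tested only because A5-CKO was high. For 0 of the 10 did both lie below, beside 23.5%. The median log2 fold change of the 10 was 0.11, with 5 above 0 and 5 below 0, and that of all genes tested was -0.02. Fgf7 and Fgf10 are among the 5 above 0. With at least 10 counts required in every library, 8 of the genes remained, without Fgf7 and Fgf10, and their median was -0.34. The median of the 10 was -0.34 without A5-CKO 2 and 0.6 without A5-CKO 1, so its sign is not settled.

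**Figure D1:**
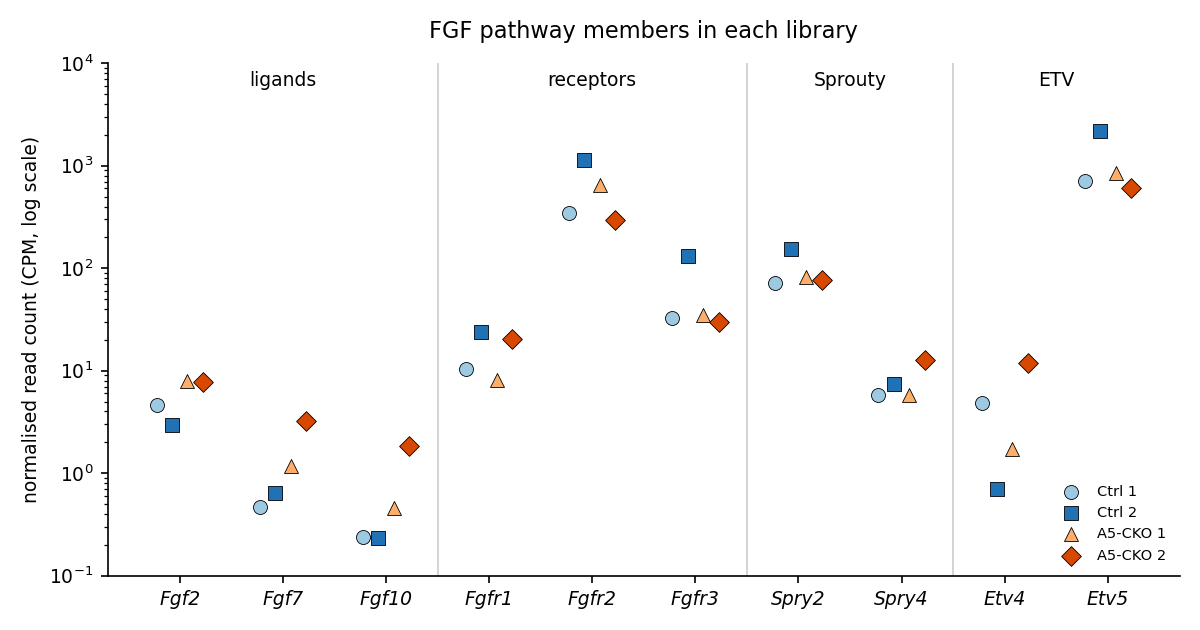
CPM of each of the 10 FGF genes on a log axis, with 1 point for each of the 2 Ctrl and 2 A5-CKO libraries. The groups do not overlap for Fgf2, Fgf7 and Fgf10, while Etv5, at 601 to 2173 CPM, and Fgfr2, at 297 to 1147 CPM, are the highest and have Ctrl 2 on top.

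Levels of different genes were compared as CPM per kb of the longest transcript, averaged over the 4 libraries. On this scale the order was Etv5 (273), Fgfr2 (137), Spry2 (46.3), Fgfr3 (13.5), Fgfr1 (3.12), Etv4 (2.0), Spry4 (1.67), Fgf2 (0.975), Fgf7 (0.514) and Fgf10 (0.168). Each of Etv5, Fgfr2, Spry2 and Fgfr3 exceeded the next gene in 4 of 4 libraries, and so did Fgf2 and Fgf7. Fgfr1 exceeded Etv4 in 3 libraries, Etv4 exceeded Spry4 in 2, and Spry4 exceeded Fgf2 in 3, so these neighbours were not separated beyond the spread between libraries. Etv5 stood at the 98.5th percentile of 15237 tested genes with a known length, and Fgf10 at the 2.7th.

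Fgf10, the mesenchymal growth factor that directs branching of the embryonic lung, was the least abundant of the 10. Its gene, at 118714699 to 118792573 on chromosome 13 (GRCm38.p6), had 4 and 4 counts in the Ctrl libraries and 10 and 43 in the A5-CKO libraries. The exact Poisson 95% intervals, which cover counting error only, ran from 1.1 to 10.2 for each Ctrl library, from 4.8 to 18.4 for A5-CKO 1 and from 31.1 to 57.9 for A5-CKO 2. A5-CKO 2 thus stood apart, whereas the interval of A5-CKO 1 overlapped those of Ctrl. The levels were 0.237, 0.233, 0.453 and 1.84 CPM in the order Ctrl 1, Ctrl 2, A5-CKO 1 and A5-CKO 2, and the same order is used for every list of 4 values that follows. Its log2 fold change was 2.26 (SE 0.98, edgeR adjusted p = 0.528). Fgf10 passed the filter on low counts only through the A5-CKO libraries, so its difference is a description.

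Fgf7, also called keratinocyte growth factor and the closest relative of Fgf10 among the 3 ligands, was higher in A5-CKO as well but did not pass the adjusted test. Its gene on chromosome 2, from 126034658 to 126091185, had 8, 11, 26 and 75 counts, or 0.473, 0.64, 1.18 and 3.21 CPM. A5-CKO 2 again had the highest value, and the groups did not overlap. The log2 fold change was 1.97 (SE 0.8), with an unadjusted p of 0.0438 from the edgeR model fitted across all genes and an adjusted p of 0.528. Fgf7 too passed the filter on low counts only because A5-CKO was high, so its difference and p-values are a description as well. Leaving out A5-CKO 2 brought the log2 fold change to 1.07 for Fgf7 and to 0.93 for Fgf10. That of Fgf7 was 1.86 without Ctrl 1 and 2.19 without Ctrl 2, and that of Fgf10 was 2.94 without A5-CKO 1.

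The summed fibroblast markers shared the peak of both genes in A5-CKO 2, but were lowest in A5-CKO 1, where both genes lay above Ctrl. Of the 13 markers, 9 were highest in A5-CKO 2, among them Pdgfra at 9.17, 11.3, 5.52 and 22.9 CPM and the collagen gene Col1a1 at 147, 32.5, 21.3 and 386 CPM. Another 3 were highest in Ctrl 2, among them Tcf21 at 2.13, 3.72, 0.905 and 1.28 CPM, and Mfap4 was highest in Ctrl 1. In A5-CKO 1, 12 of the 13 had their lowest value. Per 1000 CPM of the 13 fibroblast markers, Fgf7 was at 0.538, 0.896, 2.81 and 1.99 CPM and Fgf10 at 0.269, 0.326, 1.08 and 1.14 CPM. On this scale both A5-CKO libraries lay above both Ctrl libraries, and A5-CKO 2 no longer stood apart from A5-CKO 1. Both genes passed the filter only because A5-CKO was high, so this separation too is only a description. The scale leans on 1 marker, Npnt, at 228, 397, 206 and 311 CPM of sums of 879.8, 714, 419 and 1612 CPM. It was not tried without Npnt, and the Ctrl ratios rest on 4 to 11 counts. The sum of 6 smooth muscle markers was 72.1, 20.2, 16.0 and 172 CPM. Per 1000 CPM of it Fgf7 was at 6.56, 31.7, 73.4 and 18.6 CPM and Fgf10 at 3.28, 11.5, 28.2 and 10.7 CPM. The groups overlapped for both genes on that scale. The part of these markers in the values of Fgf7 and Fgf10 was not tested.

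Fgf2, or basic FGF, a broadly acting growth factor that binds several FGF receptors, was higher in both A5-CKO libraries but did not pass the test. It lies on chromosome 3 from 37348477 to 37410106 and had 78, 51, 176 and 181 counts, or 4.61, 2.97, 7.97 and 7.74 CPM. The A5-CKO libraries differed little from each other and lay above both Ctrl libraries, at a mean of 7.85 ± 0.164 CPM against 3.79 ± 1.16 CPM (SD, n = 2 each). The log2 fold change was 1.05 (SE 0.52, edgeR adjusted p = 0.539). It kept its sign when any library was left out, with values from 0.74 to 1.48. Corrected for transcript GC and length, it was 0.58. The fibroblast sum, 419 CPM in A5-CKO 1 and 1612 CPM in A5-CKO 2, differed between libraries in which Fgf2 was nearly equal. Per 1000 CPM of the fibroblast markers, Fgf2 was at 5.24, 4.16, 19.0 and 4.8 CPM, with the groups overlapping. Per 1000 CPM of the smooth muscle markers it was at 64.0, 147, 497 and 44.9 CPM, again with overlap. The part of these markers in the Fgf2 values was not tested. Exons of Fgf2 share 640 bases with Nudt6 on the opposite strand, and Nudt6 had 73, 63, 121 and 144 counts. The strand setting of the counting was not stated, so reads from the shared stretch, 9.44% of the Fgf2 exon bases, cannot be told apart.

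Of the receptors, Fgfr2 was by far the most abundant. It lies on chromosome 7 from 130162451 to 130266808, and its levels were 346, 1147, 642 and 297 CPM. Ctrl 2 was highest and A5-CKO 2 lowest, with A5-CKO 1 above Ctrl 1, so the groups overlapped (log2 fold change -0.67, SE 0.63, edgeR adjusted p = 0.713). Without Ctrl 2 the log2 fold change was 0.41. Gene counts do not separate the IIIb form of epithelial cells from the IIIc form of mesenchymal cells. Fgfr2 made up 88.9%, 87.9%, 93.7% and 85.8% of the summed CPM per kb of the 3 receptors.

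Fgfr3, the receptor best known for restraining the growth of cartilage, was at 32.6, 132, 34.6 and 29.6 CPM. Ctrl 2 stood well above the other libraries, which lay close together. The log2 fold change was -1.35 (SE 0.6, edgeR adjusted p = 0.528), and it was -0.05 without Ctrl 2. Its exons share 998 bases (13.9%) with a gene on the opposite strand. Fgfr1, a receptor widely used by mesenchymal cells, was at 10.3, 24.1, 8.06 and 20.5 CPM. Both libraries numbered 2 were higher than both numbered 1, and the log2 fold change was -0.27 (SE 0.61, edgeR adjusted p = 0.893). Its sign turned to 0.46 without Ctrl 2, to 0.26 without A5-CKO 1 and to 0.08 with total counts in place of TMM factors.

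Spry2, an inhibitor that acts on the RAS to ERK cascade, lies on chromosome 14 from 105891947 to 105896819 and was at 72.5, 154, 82.5 and 76.9 CPM. As with Fgfr3, Ctrl 2 was high and the other 3 libraries were close to each other. The log2 fold change was -0.51 (SE 0.4, edgeR adjusted p = 0.66), and it was 0.11 without Ctrl 2. Spry4, a relative with a like role, was much lower, at 5.85, 7.39, 5.75 and 12.8 CPM. Here A5-CKO 2 was high (log2 fold change 0.48, SE 0.55, edgeR adjusted p = 0.764), and without it the value was -0.2. The ratio of Spry2 to Spry4 in CPM per kb was 28.2, 47.6, 32.7 and 13.7, highest in Ctrl 2 and lowest in A5-CKO 2.

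Etv5 lies on chromosome 16 from 22381313 to 22439570 and was at 716, 2173, 849 and 601 CPM. The 2 Ctrl libraries enclosed A5-CKO 1, and A5-CKO 2 was lowest. The log2 fold change was -1.0 (SE 0.56, edgeR adjusted p = 0.572), and it was -0.01 without Ctrl 2. Without Ctrl 1 the log2 fold changes of Etv5, Fgfr3 and Spry2 were -1.51, -1.96 and -0.87. That fit holds a single Ctrl library, the high one, which is assumed to vary like the A5-CKO pair. Per 1000 CPM of the 10 AT2 markers, Etv5 was at 12.7, 26.9, 20.2 and 17.3 CPM. On that scale Ctrl 1 was lowest and Ctrl 2 highest, with both A5-CKO libraries between them. The same scale put Fgfr2 at 6.14, 14.2, 15.3 and 8.57 CPM and Spry2 at 1.29, 1.91, 1.97 and 2.22 CPM, both also lowest in Ctrl 1. The part of the AT2 marker level in these values was not tested.

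Etv4, the closest relative of Etv5 here, ran the other way. Its gene on chromosome 11, from 101769747 to 101785310, had 81, 12, 38 and 279 counts, or 4.79, 0.698, 1.72 and 11.9 CPM. A5-CKO 2 and Ctrl 1 were high, and Ctrl 2, where Etv5 was highest, was lowest. Its 17.1-fold range over the libraries was the widest of the 10 genes. The log2 fold change was 1.31 (SE 1.12, edgeR adjusted p = 0.686), and it was -0.67 without A5-CKO 2 and 3.38 without Ctrl 1. Etv4 per 1000 counts of Etv5 was 6.68, 0.321, 2.03 and 19.9. Markers of transitional cells, the keratin-rich state between AT2 and AT1 cells, summed to 3798, 1659.5, 2425 and 4039 CPM, the same order of libraries as for Etv4. The 7 cycling markers summed to 179.6, 132, 149 and 249.6 CPM, again in that order. Per 1000 CPM of the transitional markers, Etv4 was at 1.26, 0.421, 0.709 and 2.95 CPM. Per 1000 CPM of the cycling markers it was at 26.7, 5.31, 11.5 and 47.8 CPM. The libraries kept the same order on both of these scales. They did not per 1000 CPM of the smooth muscle markers, where Etv4 was at 66.4, 34.6, 107 and 69.3 CPM and A5-CKO 1 was highest. The part of these markers in the Etv4 values was not tested.

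**Figure D2:**
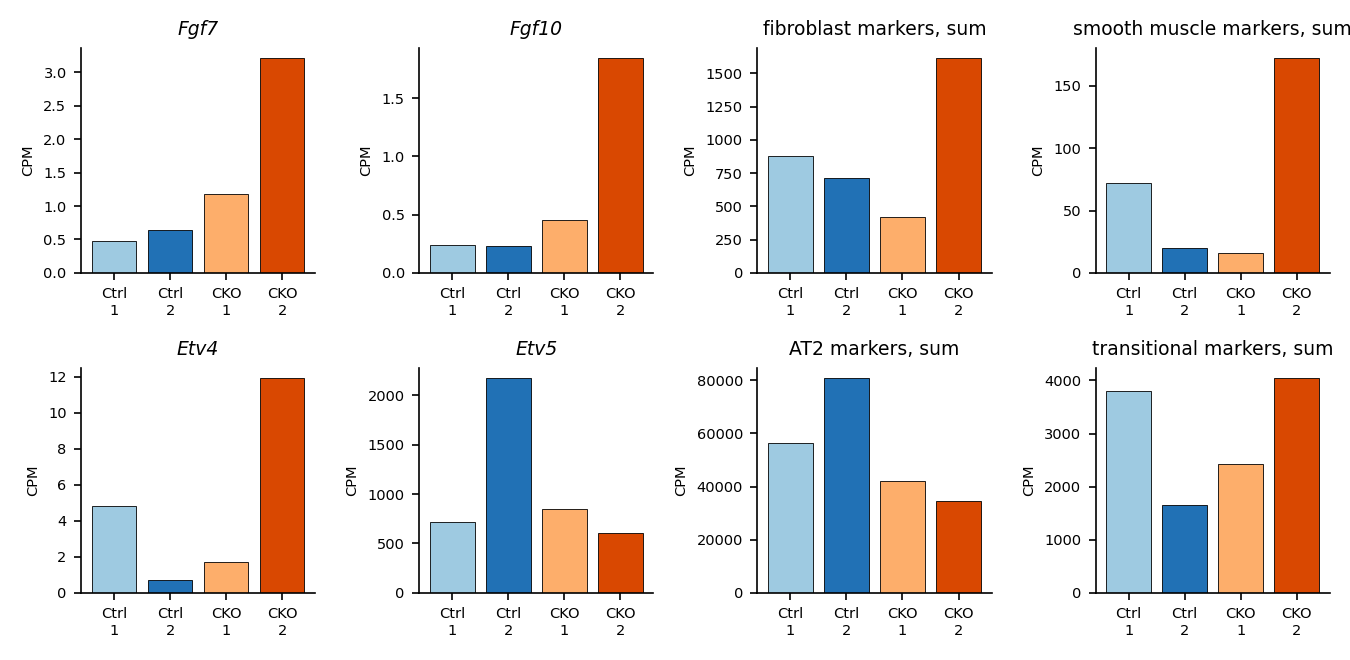
CPM of Fgf7, Fgf10, Etv4 and Etv5 and summed CPM of the fibroblast, smooth muscle, AT2 and transitional marker lists, with 1 bar per library, bars starting at 0 and CKO standing for A5-CKO. Fgf7, Fgf10 and Etv4 are highest in A5-CKO 2, where the fibroblast sum is also highest at 1612 CPM, and Etv5 is highest in Ctrl 2, where the AT2 sum is highest at 80725 CPM.

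**Figure D3:**
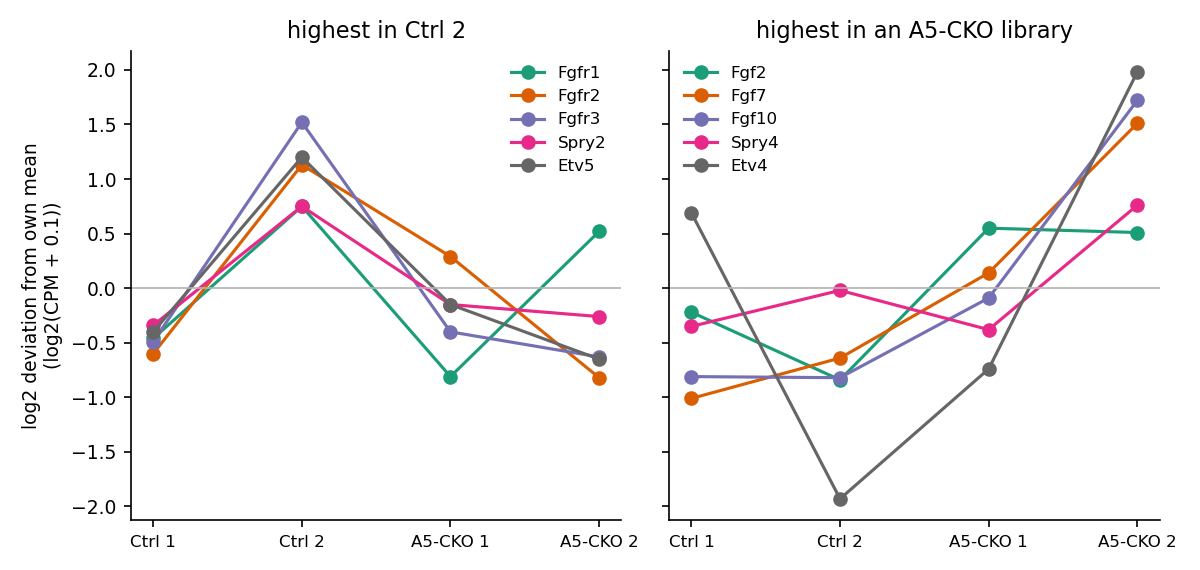
Difference of each FGF gene from its own mean over the 4 libraries, in log2(CPM + 0.1), for the 5 genes highest in Ctrl 2 (left) and the 5 highest in an A5-CKO library (right), with lines joining the points of 1 gene across libraries that have no order. Etv5, Fgfr2, Fgfr3 and Spry2 peak in Ctrl 2 at 1.2, 1.13, 1.52 and 0.75, while Etv4, Fgf10 and Fgf7 peak in A5-CKO 2 at 1.98, 1.72 and 1.51.

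Across the 10 genes, Ctrl 2 was the highest library for 5 (Fgfr1, Fgfr2, Fgfr3, Spry2 and Etv5), A5-CKO 2 for 4 (Fgf7, Fgf10, Spry4 and Etv4), A5-CKO 1 for Fgf2 and Ctrl 1 for 0. Over all genes tested these shares were 28.3%, 20.2%, 27.8% and 23.6%. The 2 libraries that most often held the top value were of different genotypes.

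**Figure D4:**
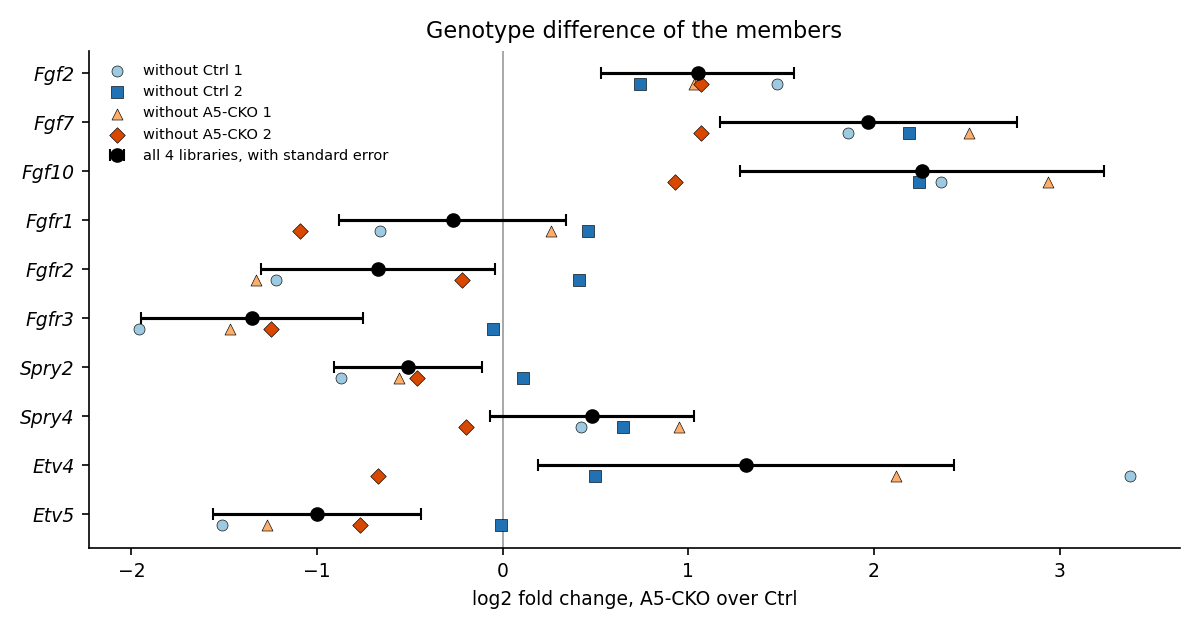
Fitted log2 fold change of A5-CKO over Ctrl for each FGF gene from edgeR, with bars of 1 standard error, and the same value with each library left out in turn. The values run from 2.26 for Fgf10 to -1.35 for Fgfr3, and without Ctrl 2 those of Fgfr3 and Etv5 move to -0.05 and -0.01.

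The GGACT pentamer, a frequent form of the m6A consensus, was counted in the longest GENCODE M21 transcript of each gene as a description of sequence. Spry2 held 3.35 per kb, the most of the 10, followed by Fgfr1 with 1.59 and Etv5 with 1.51. The quartiles over 19622 protein-coding genes were 0.6 and 1.5 per kb around a median of 1.03. Spry4 and Etv4, at 0.42 per kb each, and Fgf10, at 0.49, were below the lower quartile. Methylation was not measured in these counts.

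The rest of the pathway was read from 6 lists of 94 genes in all, of which 75 passed the filter. Before adjustment, 4 genes were higher and 4 lower in A5-CKO at p under 0.05, beside 4.48% and 4.71% of all genes, and 0 passed after adjustment. The median log2 fold change of the 75 was 0.01, with 38 above 0 and 37 below 0.

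Among the 19 other ligands, 5 passed the filter, and Fgf4, Fgf5, Fgf6 and Fgf15 had 0 counts in all 4 libraries. Fgf1, which binds every FGF receptor, was the most abundant ligand at 93.3, 207, 158 and 71.0 CPM, above Fgf2, Fgf7 and Fgf10 in every library. Like Fgfr2 it was highest in Ctrl 2 and lowest in A5-CKO 2 (log2 fold change -0.39, SE 0.52). Fgf11, an intracellular relative that is not secreted, was at 7.39, 25.7, 20.3 and 8.12 CPM.

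Of the 19 other receptors and co-receptors, 16 passed the filter and 2 were lower at an unadjusted p under 0.05, beside 4.71% of all genes. Fgfbp1, a secreted carrier that frees FGFs from heparan sulfate, was at 71.1, 59.4, 21.1 and 21.3 CPM. Both A5-CKO libraries were well below Ctrl (log2 fold change -1.62, SE 0.30, edgeR adjusted p = 0.528). Fgfrl1, a receptor without a kinase domain, was at 34.8, 37.9, 19.5 and 22.6 CPM (log2 fold change -0.79). The most abundant co-receptors per kb were the heparan sulfate carriers Sdc1, at 1639, 2058, 934 and 1155 CPM, and Sdc4, at 760.3, 1133, 625 and 600.2 CPM. Both had non-overlapping groups with lower A5-CKO values, as did 4 of the 16 tested genes of this list in all, beside 23.5% of all genes. Their log2 fold changes were -0.82 and -0.63, and neither passed the adjusted threshold. Of the 12 genes of heparan sulfate synthesis and editing, all tested, 0 were under 0.05 before adjustment, beside 9.18% of all genes. The most abundant, Ndst1, was at 199, 257, 256 and 232 CPM, with Hs2st1 next at 123, 131, 202 and 155 CPM.

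The 21 adaptor and relay genes all passed the filter. Braf, a kinase upstream of ERK, was at 34.2, 45.1, 93.3 and 67.3 CPM (log2 fold change 1.02, SE 0.32). Mapk3, which encodes ERK1, was at 402, 389, 241 and 227 CPM (log2 fold change -0.76, SE 0.31). The groups did not overlap for either, but neither passed the adjusted threshold (edgeR adjusted p = 0.528 each). Of the 21 genes, 3 lay higher and 4 lower in A5-CKO without overlap, beside 20.3% and 23.5% of all genes. The fitted values of these 2 kinases of the same cascade had opposite signs. Map2k2, the kinase between them, was at 178, 146, 96.3 and 115 CPM (log2 fold change -0.62).

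Of the 12 other feedback inhibitors, 11 were tested and 2 were higher at an unadjusted p under 0.05, beside 4.48% of all genes. Dusp5, a phosphatase of ERK, was at 6.56, 6.40, 18.8 and 11.2 CPM (log2 fold change 1.21). Rasa1, which switches RAS off, was at 18.4, 19.1, 39.2 and 31.2 CPM (log2 fold change 0.91). Neither passed the adjusted threshold, and in both genes A5-CKO 1 was the highest library. Spry1, at 147, 436, 269 and 121 CPM, had its highest value in Ctrl 2 as Spry2 did, and Dusp6, another ERK phosphatase, was at 67.3, 99.5, 77.9 and 125 CPM. Among the 11 other ETS factors, of which 10 were tested, Ets1 was at 24.5, 20.9, 50.6 and 43.7 CPM (log2 fold change 1.06, SE 0.32) and Ets2 at 6.80, 3.37, 1.72 and 1.75 CPM (log2 fold change -1.55, SE 0.62). These relatives therefore had opposite signs too. The most abundant factors of this list were Elf3, an epithelial factor at 195, 157, 126 and 88.1 CPM, and Erf, a repressor at 61.6, 51.5, 33.0 and 45.6 CPM, both with lower A5-CKO values that did not pass the test.

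**Figure D5:**
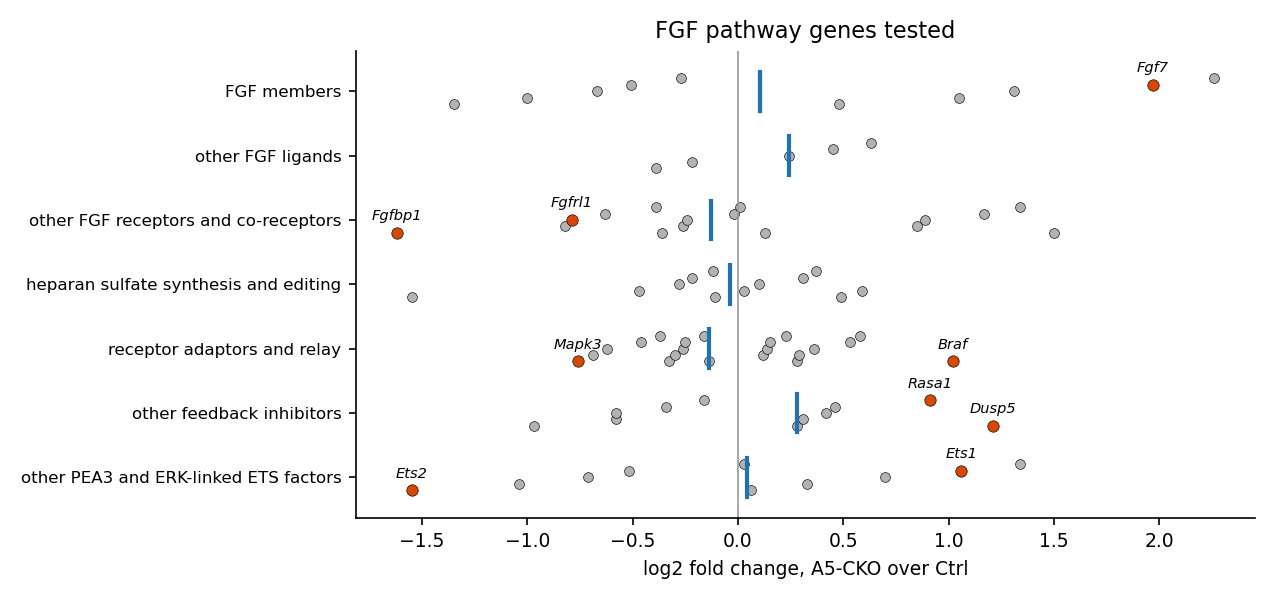
Fitted log2 fold change of A5-CKO over Ctrl for the tested genes of the FGF set and of the 6 other pathway lists, 1 point per gene, with genes at an unadjusted p under 0.05 named in orange and blue bars at the list medians. The lists straddle 0, with medians from -0.14 to 0.28, and the marked genes include Fgfbp1 at -1.62 and Dusp5 at 1.21.

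Genes with the most similar pattern were sought for the most abundant gene of each role by the Euclidean distance between centred log2 CPM over the 4 libraries, among 9919 genes of at least 10 CPM. Nearest to Fgfr2 were Axin2 (0.086), Spry1 (0.124) and Cpm (0.209), and 48 genes lay within 0.5. Nearest to Etv5 were Elapor1 (0.065), Sec14l4 (0.075) and Lzts1 (0.114), with 95 genes within 0.5. Among the genes close to Spry2 were Bcl9l (0.071) and Ugt1a6a (0.077), with 975 genes within 0.5. For Fgf2 the closest were Ccdc9b (0.103), Mtf2 (0.131) and Areg (0.14), and 225 genes lay as near as 0.5. The named neighbours of Fgfr2, Etv5 and Spry2 had their highest level in Ctrl 2, as with Axin2 at 12.6, 40.2, 23.7 and 11.2 CPM. Those of Fgf2 were higher in both A5-CKO libraries, as with Areg, an EGF receptor ligand, at 39.5, 23.7, 69.0 and 69.5 CPM. With 4 libraries, which share depth and composition across genes, such likeness is a description only.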

How the data were processed

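RNA-seq counts of sorted AT2 cells from 2 Ctrl and 2 A5-CKO libraries were used. The authors trimmed reads with Trim Galore 0.6.10, aligned them to mm10 with HISAT2 2.2.1 and deposited raw gene counts from featureCounts 2.0.3, as the submitters' processing notes name the tools. The paper describes counting under MeRIP-seq, and it was taken to hold for the RNA-seq. Removal of ribosomal RNA reads is described under RNA-seq only, and removal of duplicate reads under both. Dropping duplicates can lower the counts of abundant genes. Replicates were not pooled.

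Counts were fitted here with edgeR 4.0.16 in R 4.3.3 (TMM factors from 0.860 to 1.13, filterByExpr, estimateDisp, glmQLFit, glmQLFTest, two-sided, Benjamini-Hochberg over 16661 genes at 0.05). Counts varied with a common dispersion of 0.173 (biological coefficient of variation, 41.6%). CPM uses TMM-scaled library sizes. With 2 against 2, a permutation of labels cannot give p under 0.333. Alternatives were RLE, upper-quartile and no factors, DESeq2 1.42.0, limma 3.58.1 voom, other filters, a robust fit, a replicate block, GC and length splines with 4 degrees of freedom (91.5% of genes) and each library left out. The script was tested on simulated data.

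The 10 genes, the pathway lists and the marker lists were chosen with earlier results of these data known. Named genes are the 10, Alkbh5, pathway genes under an unadjusted p of 0.05, the 2 most abundant per kb of each list, and the 3 nearest in pattern to the most abundant gene of each role, of which 1 is not reported here. Marker genes were named after their values were seen. Positions are those of RefSeq GRCm38.p6 (99.4% of names matched) and exons those of GENCODE M21. Of the rows, 223 lie on fix patches, and 0 of the 10 genes has a patch copy.

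The AT1, mesothelial, endothelial, leukocyte and airway lists were read as well, with summed levels, Ctrl libraries first, of 2328, 2201, 2145 and 2315 CPM, 126, 49.5, 27.4 and 108 CPM, 154, 236, 104 and 230.2 CPM, 667, 363, 307 and 856 CPM, and 2884, 2795, 2012 and 1279 CPM.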

Additional observations from a re-analysis of the deposited data

How the results depend on the processing

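Of the results for single members and Alkbh5 under the alternatives, 164 kept their direction and their side of the adjusted threshold, and 7 reversed. Alkbh5 passed the threshold with DESeq2 (adjusted p = 0.0248 on the same genes, 0.0235 under its own filter). It also passed with the crossed pairing as block (edgeR adjusted p = 0.00112), a setting chosen after seeing the data. The reversals were Fgfr1 at 0.08 with total counts only, at 0.46 without Ctrl 2 and at 0.26 without A5-CKO 1, Fgfr2 at 0.41 and Spry2 at 0.11 without Ctrl 2, and Spry4 at -0.2 and Etv4 at -0.67 without A5-CKO 2, and the cause was not tested. With a library left out, Fgfr1 ran from -1.09 to 0.46, Fgfr2 from -1.33 to 0.41, Spry2 from -0.87 to 0.11, Spry4 from -0.2 to 0.95 and Etv4 from -0.67 to 3.38. No member passed the adjusted threshold in any fit run. Over all genes, the count past the adjusted threshold was 0 in edgeR, 55 with DESeq2 on the same genes, 59 with its default filtering and 0 to 1 with a library left out, the single gene being Fam71a without A5-CKO 2. Members under 0.05 before adjustment numbered 1, against 2 with upper-quartile factors, 3 with total counts only, 3 with either DESeq2 filter, 0 with limma voom, 0 with at least 10 counts in every library (where Fgf7 and Fgf10 were not tested), 0 with the GC and length correction and 0 to 3 with a library left out (0 without Ctrl 2 or A5-CKO 2, 3 without Ctrl 1). A fit with a library left out holds 1 library of that genotype, assumed to vary like the other pair. Other pathway genes under 0.05 numbered 8, against 13 with total counts only, 4 with the GC and length correction and 2 to 9 with a library left out, the lowest without A5-CKO 1. All genes under 0.05 numbered 1530, against 738 to 1634 with a library left out, again lowest without A5-CKO 1. The median of all genes moved from -0.02 to 0.3 with total counts only. Labels give both groups the replicate numbers 1 and 2, but do not say that they pair mice, and same-numbered libraries did not deviate together (correlation -0.35). With the replicate block, 0 members, 5 other pathway genes and 754 of all genes were under 0.05 and 0 genes passed adjustment. A crossed pairing as block, chosen after seeing the data, gave 4, 15 and 2582 under 0.05 and 230 past adjustment. Fgf2 was at 0.58 with the GC and length correction against 1.05. Depth limits Fgf10 and Fgf7 most, with 4 to 11 counts in Ctrl.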
